A study of Rattus norvegicus with 8 samples.

Results

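miR-378 is a microRNA cut from a hairpin in the gene Ppargc1b, and it was the most abundant miRNA in these rat kidney libraries. Its members are the rows of the deposited count table named miR-378 with any arm suffix or letter, which are 3 of the 620 rows. They are rno-miR-378, its opposite arm rno-miR-378*, and a row rno-mir-378* in lower case that held 1 read in all. The hairpin was selected on its mean share of the reads in these same libraries. Its level and rank over all libraries are therefore given as a description, with no test, and only differences between the groups were tested.

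Small RNA was sequenced from the kidneys of 8 male Big Blue rats, which are transgenic Fisher 344 rats that carry a reporter for mutation assays and were 6 weeks old when the doses began. The AA group of 4 rats received aristolochic acid (AA), a plant compound that is toxic to the kidney and causes tumors there, as its sodium salt by gavage at 10 mg/kg body weight, in 5 doses a week over 12 weeks. The control group (CTL) of 4 rats was given 0.9% sodium chloride as often. Each library came from the kidney tissue of 1 rat, so that fewer cells of a type and less RNA per cell cannot be told apart. The libraries held 13412373 to 15616670 reads on known rat miRNAs, and each is called here by its title (CTL1 to CTL4, AA1 to AA4). The study reports far fewer reads on known rat miRNAs for all its samples together than any of these libraries held. The source of this difference was not tested. One label field gives the tissue as liver. The arms of miR-122, the defining miRNA of liver cells, together made up between 6.7e-05% and 0.0654% of the reads, while miR-30a, which is abundant in the nephron, made up 11.8% on average.

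A miRNA hairpin is cut by Dicer into a short duplex with a strand from each arm. An Argonaute protein keeps 1 of these strands to guide silencing. The passenger strand, marked with a star in older names, is usually short-lived. The bases from position 2 to 8, called the seed, pair with the target mRNA. Ppargc1b encodes PGC-1 beta, a coactivator of genes for mitochondria and fat oxidation, and miR-378 is known for acting on the same metabolic processes in muscle, liver and fat. The proximal tubule of the kidney is rich in mitochondria.

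The RefSeq sequences of the arms are shown first because the arms are compared below. They are written 5′ to 3′ with the seed in capitals, and the names in the count table were matched to miR-378a-3p and miR-378a-5p.
rno-miR-378: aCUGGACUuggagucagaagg
rno-miR-378*: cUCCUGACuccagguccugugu
In the GRCr8 build, the hairpin of 65 nt lies at chr18:57128922-57128986 on the minus strand. rno-miR-378 takes chr18:57128925-57128945 and rno-miR-378* takes chr18:57128962-57128983. Both lie inside Ppargc1b, which is on the same strand, 2480 bases downstream of the start of the gene. No other name among the 693 mature rat miRNAs with a RefSeq sequence has the seed of either arm. The longest run of bases that another of these 693 shares with rno-miR-378 is 9 of its 21 bases. Sequences outside this set were not compared, among them those of Mir378b, a gene that RefSeq lists on another chromosome, and of rno-miR-3600, a rat miRNA whose sequence, as the study prints it, closely resembles that of rno-miR-378 over most of its length. Whether reads of either were counted on the row of rno-miR-378 was not tested.

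The same place carries a second annotated hairpin, rno-mir-3557, on the plus strand at chr18:57128900-57129012. It was named here after its values were seen, because of its position. Its arms are shown for the overlap with those of miR-378.
rno-miR-3557-5p: gCCUUCUGacuccaaguccagu
rno-miR-3557-3p: aCACAGGAccuggagucaggag
rno-miR-3557-5p holds the whole reverse complement of rno-miR-378, over 21 bases, and rno-miR-3557-3p that of rno-miR-378*, over 22 bases. rno-miR-3557-3p is also similar to rno-miR-378 itself, with 3 mismatches over 20 aligned bases without gaps. Whether reads were counted on the wrong row of this pair was not tested.

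rno-miR-378 had 4159341, 4039419, 3612302 and 3977140 reads in CTL1 to CTL4. It had 2269120, 2700678, 2930206 and 2815314 reads in AA1 to AA4. Every AA library lay below every control library, before any scaling. As a share of all counted reads, rno-miR-378 took 27.3%, 27.5%, 23.3% and 29.0% in CTL1 to CTL4 and 16.9%, 17.8%, 21.2% and 18.03% in AA1 to AA4. The lowest control library was CTL3 and the highest AA library was AA3. The counting error is small beside the spread between rats, since the 95% Wilson interval in CTL1 was 27.25% to 27.295%. The group means were 26.8% ± 2.44 for the control and 18.5% ± 1.88 for the AA group (SD, 4 rats each), a difference of 8.27 percentage points. As the groups did not overlap, p was bound to be the smallest that 4 against 4 rats allow (exact permutation test, two-sided, p = 0.0286). It adds nothing to the lack of overlap. How many other miRNAs had shares without overlap was not counted. After scaling to a common library size, 24.3% of the 367 tested miRNAs did not overlap between the groups.

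**Figure D1:**
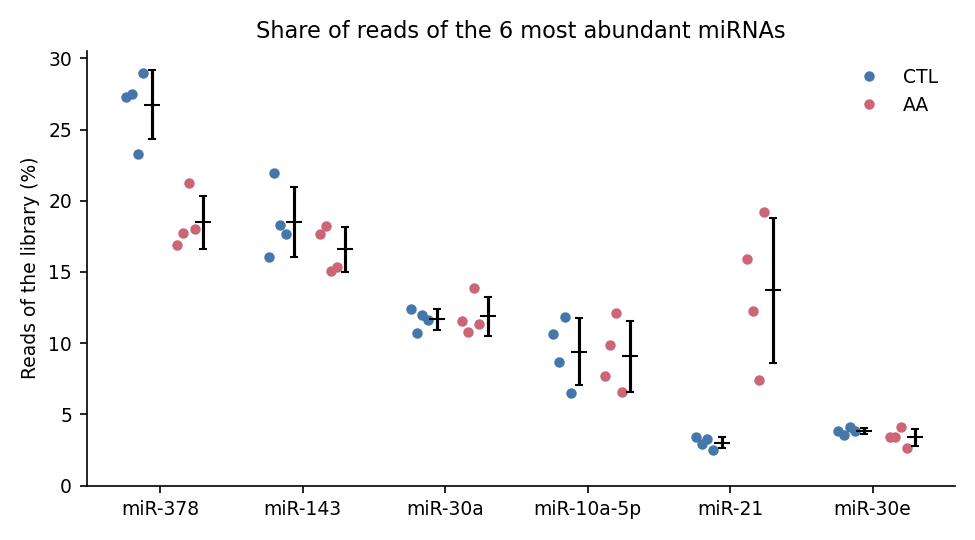
Percent of the reads of each library on the 6 most abundant miRNAs (vertical axis), with 1 point for each of the 4 CTL and 4 AA libraries and black marks for the mean ± SD. miR-378 lay between 23.3% and 29.0% in the control group and between 16.9% and 21.2% in the AA group, and miR-21 was higher in every AA library.

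rno-miR-378 ranked first in 5 of the 8 libraries, which were all the control libraries and AA3. In AA1 and AA2 it was second to rno-miR-143, a miRNA of smooth muscle, and in AA4 it was second to rno-miR-21, a miRNA known for its rise in kidney injury. In the control libraries it had 1.26 to 1.70 times the reads of rno-miR-143, which was the next in each of them. Levels of different miRNAs are given per read, and as adaptors join some ends better than others, such ratios between miRNAs are less certain than changes of the same miRNA. The gel step kept RNA fragments of 22 to 30 nt per the labels, and rno-miR-378 is listed with 21 bases in RefSeq.

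The call for rno-miR-378 came from a test over the whole table. It covered the 367 miRNAs that reached 10 reads in 4 or more of the libraries, of which 16.3% passed an adjusted p-value of 0.05, with 10.4% higher and 5.99% lower in the AA group (quasi-likelihood test of edgeR, Benjamini-Hochberg method). Scaled by the TMM library sizes, rno-miR-378 was at 311890, 297250, 224008 and 323982 CPM (reads scaled to a common library size) in CTL1 to CTL4 and at 175389, 146511, 201595 and 166765 CPM in AA1 to AA4. The groups did not overlap, which held for 24.3% of the tested miRNAs, 9.81% with the AA group lower. rno-miR-378 fell by 0.75 on the log2 scale (standard error 0.18, adjusted p = 0.019 from edgeR). The direction was kept with each library left out in turn, with log2 fold changes from -0.97 to -0.69, but the call was lost without CTL1, without CTL2 and without CTL4, where the adjusted p from edgeR was 0.057, 0.060 and 0.056. Without CTL1 and AA2 together, the libraries with the most miR-122, it was -0.75 with an adjusted p of 0.083 from edgeR.

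Because rno-miR-378 holds so many of the reads, a change in its share changes the share left for all others together. The other miRNAs together took 73.2% of the control reads and 81.5% of the AA reads, a log2 difference of 0.15. Reads on rno-miR-21, which is 1 of these others, rose from 3.01% ± 0.392 to 13.7% ± 5.06 (SD, n = 4 each). This rise was larger than the whole gain of the others. By the group means, the miRNAs besides rno-miR-378 and rno-miR-21 thus had a lower summed share in AA rats. Which of these changes in share led to which was not tested. As a share of the reads without those of rno-miR-21, rno-miR-378 was at 27.6% ± 2.45 in control rats and 21.4% ± 1.43 in AA rats (SD, n = 4 each), without overlap, which alone sets p (exact permutation test, two-sided, p = 0.0286). As a share of the reads without those of the other 9 most abundant miRNAs, it was at 60.0% ± 3.32 and 50.1% ± 2.97 (SD, n = 4 each), again without overlap.

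The size of the fold change depended on the scaling, while the call did not. Over 7 ways to scale the libraries, the log2 fold change of rno-miR-378 lay between -0.84 with upper quartile scaling and -0.37 with total counts less rno-miR-21, and it was called with all 7 (adjusted p from 0.011 to 0.040, edgeR). The median log2 fold change over the 367 tested miRNAs moved with the scaling too, from 0.06 with TMM to 0.27 with total counts and 0.44 with total counts less rno-miR-21. A change of scaling shifts all miRNAs by nearly the same amount, so the distance of rno-miR-378 from that median, -0.81 to -0.79, is nearly fixed by construction and says nothing of stability. When rno-miR-378 and rno-miR-378* were kept out of the TMM factors, the log2 fold change was -0.80 (adjusted p = 0.011 from edgeR), and the calls over all miRNAs were then 34 higher and 26 lower, beside 38 higher and 22 lower with them. With total counts the split was 54 higher and 14 lower.

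**Figure D2:**
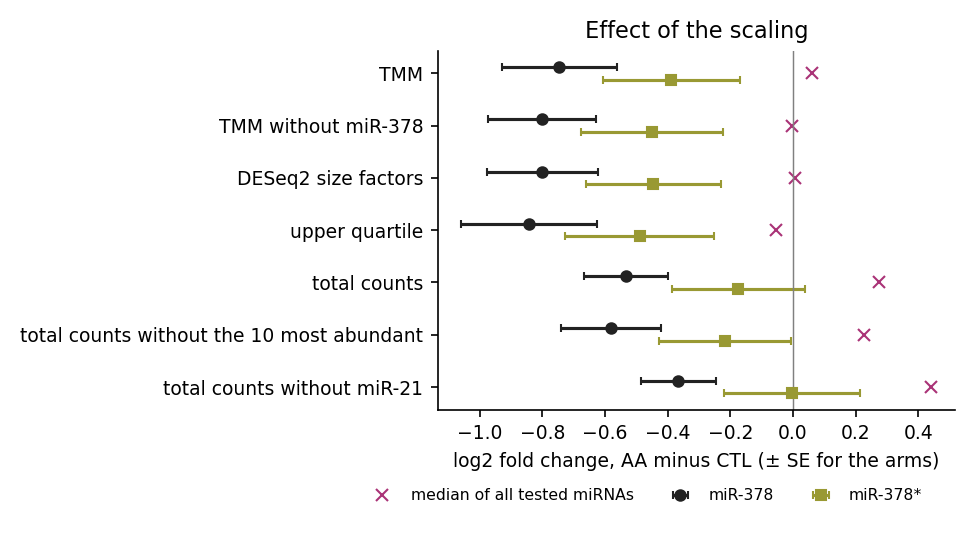
Log2 fold change between the AA and control groups (horizontal axis) of miR-378 (circles) and miR-378* (squares), with standard errors, under 7 scalings of the libraries. Crosses mark the median over all 367 tested miRNAs. miR-378 lies below 0 and below the cross with each scaling, at a distance that scaling hardly changes by construction, and miR-378* comes close to 0 with total counts less miR-21.

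Ratios of reads within a library need no scaling at all. Against each of the other 9 of the 10 most abundant miRNAs, the log2 ratio of rno-miR-378 had a lower mean in the AA group, with a median difference of -0.45. The groups did not overlap for 4 of the 9, which were rno-miR-30a, rno-miR-21, rno-let-7f and rno-miR-30d. No such count was made for ratios between other miRNAs, so this one has no background to be set against. rno-miR-378 had 2.20, 2.58, 1.94 and 2.49 reads for each read of rno-miR-30a in CTL1 to CTL4 and 1.46, 1.65, 1.53 and 1.59 in AA1 to AA4, a log2 difference of -0.56 (standard error 0.10). The difference was -2.64 (standard error 0.39) against rno-miR-21 and -1.06 (standard error 0.28) against rno-let-7f. These were the largest of the 9. They take in changes of the denominators too, as rno-miR-21 itself rose by 1.99 on the log2 scale with TMM scaling. rno-let-7f had a log2 fold change of 0.32 and was not called. Against rno-miR-192, a miRNA of the nephron epithelium, it was -0.09 (standard error 0.39), a value that single libraries decided. CTL4 held 6.70% of its reads on rno-miR-192 and the other control libraries 2.23% to 2.87%, and the difference was -0.42 without CTL4 and 0.08 without CTL2. Against rno-miR-143, the difference was -0.38 (standard error 0.17) and the groups overlapped. These 9 ratios share their numerator and are not independent of each other.

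**Figure D3:**
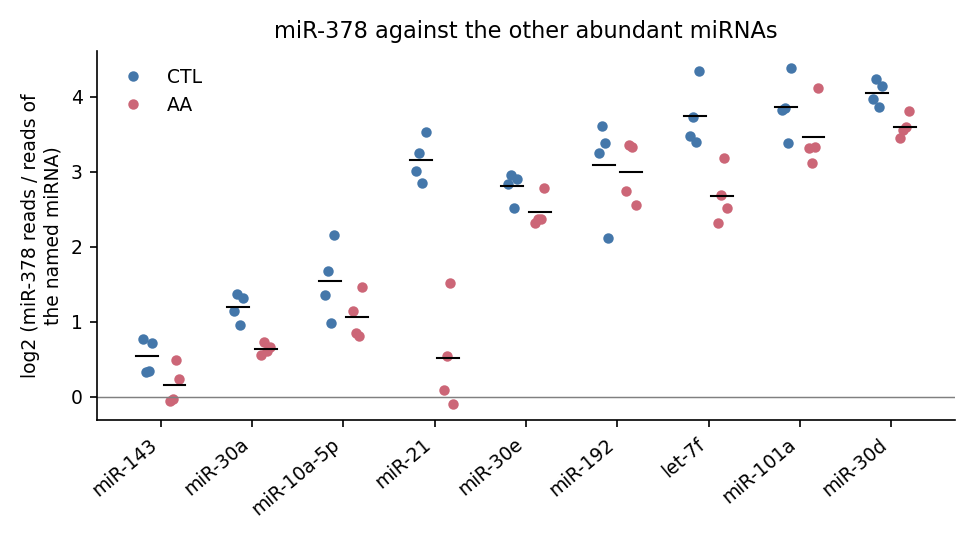
Log2 of the reads of miR-378 over the reads of each of the other 9 most abundant miRNAs in the same library (vertical axis), with 1 point for each of the 4 CTL and 4 AA libraries and a line at each mean. The AA points lie below all control points for miR-30a, miR-21, let-7f and miR-30d, and the 2 values under 0 for miR-143 and the 1 for miR-21 are AA libraries in which miR-378 was not the most abundant.

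The opposite arm was rare. rno-miR-378* had 392, 305, 374 and 461 reads in CTL1 to CTL4 and 268, 340, 350 and 384 in AA1 to AA4. It ranked between 151 and 184 among the 620 rows in each library. The groups overlapped in reads and in CPM, where the control mean was 28.1 ± 7.003 and the AA mean 21.5 ± 2.46 (SD, 4 rats each). The log2 fold change was -0.39 (standard error 0.22), and it was not called (adjusted p = 0.26 from edgeR). It was not called with any of the 7 scalings either, where its log2 fold change lay between -0.49 and -0.003. The third row, rno-mir-378*, had its only read in CTL4. With 0 reads in AA4, for example, a share of up to 1.9e-05% remains possible there.

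Both arms come from the same precursor, and their ratio in a library does not depend on scaling. For each read of rno-miR-378* there were 10611, 13244, 9659 and 8627 reads of rno-miR-378 in CTL1 to CTL4, and 8467, 7943, 8372 and 7332 in AA1 to AA4. The lowest control value, in CTL4, lay just above the highest AA value, in AA1. As a share of the reads of both arms, rno-miR-378* made up 0.00973% ± 0.00170 in control rats and 0.0125% ± 0.000835 in AA rats (SD, n = 4 each). The Wilson intervals of CTL4 and AA1, 0.0106% to 0.0127% and 0.0105% to 0.0133%, overlapped, so that the order of these libraries is within counting error. Among 111 hairpins with at least 10 reads of each arm in at least 4 libraries, 12.6% had a share of the less abundant arm that did not overlap between the groups, 8.11% with the AA group higher. The log2 ratio of rno-miR-378* to rno-miR-378 was 0.38 higher in the AA group (standard error 0.15). It was not called over the 111 hairpins (adjusted p = 0.22 from edgeR), which does not show that the ratio was the same in both groups. Of these hairpins 1.8% were called, 0.901% with the share higher in the AA group, and 21 had an unadjusted p-value under 0.05, rno-miR-378 among them. Taken as a single value, the log2 ratio gave p = 0.0286 (exact permutation test over the 8 libraries, two-sided), the smallest that is possible. The median log2 change of the arm ratio over the 111 hairpins was 0.15.

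The imbalance of the arms was the largest among these hairpins. rno-miR-378* took 0.0111% of the reads of both arms on average over the 8 libraries, the lowest share of the less abundant arm among the 111 hairpins, whose median was 2.33%. The next were rno-miR-143* with 0.0286% and rno-miR-192* with 0.0303%. 11 hairpins lay under 0.1% and 42 under 1%. Among the other abundant miRNAs, rno-miR-30a* took 1.44% and rno-miR-30e* 4.02% of the reads of their hairpins, and rno-miR-21* took 0.0784%. As the more abundant arm was chosen for its abundance, this rank is a description and was not tested.

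**Figure D4:**
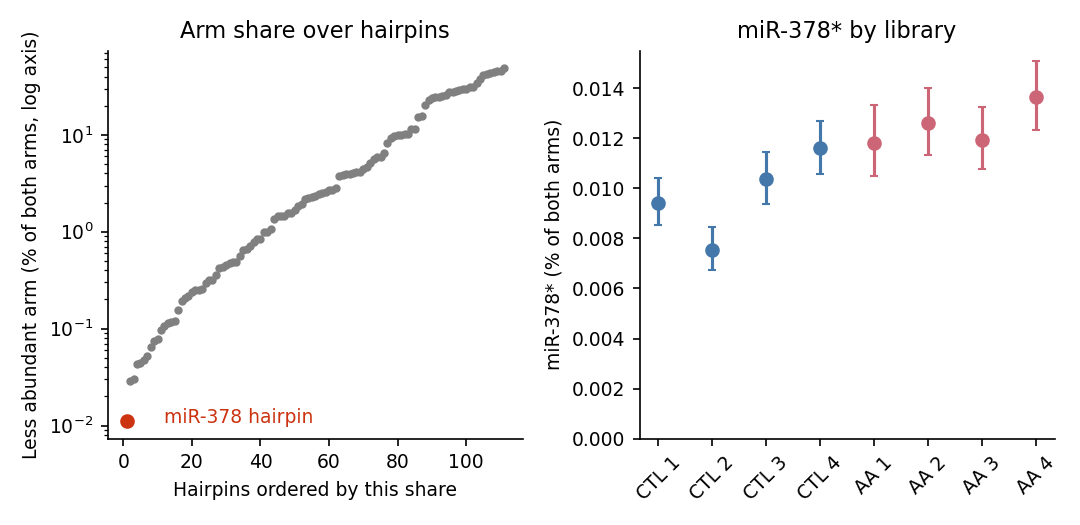
Left, the share of the less abundant arm in the reads of both arms (vertical log axis, mean of 8 libraries) for 111 hairpins in order of that share, with the miR-378 hairpin lowest at 0.0111%. Right, the share of miR-378* in each library with its 95% Wilson interval, with the control libraries from 0.00755% to 0.0116% and the AA libraries from 0.0118% to 0.0136%.

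On the other strand, rno-miR-3557-3p, which pairs with rno-miR-378*, had 129, 122, 89 and 142 reads in CTL1 to CTL4 and 53, 103, 80 and 85 in AA1 to AA4. The groups overlapped through CTL3. With TMM scaling, the log2 fold change of -0.82 (standard error 0.26) was not called (adjusted p = 0.061 from edgeR). Over the 7 scalings it lay between -0.92 and -0.41, and it was called lower with 3 of them. rno-miR-3557-5p, which pairs with rno-miR-378, had 4 reads in all. The nearest other miRNA genes in RefSeq are Mir145 and Mir143, 241 and 242 kb from Mir378 on the same chromosome and strand. rno-miR-143 was the second most abundant miRNA by mean share, and its log2 fold change of -0.36 was not called (adjusted p = 0.18 from edgeR). It was not called with any of the 7 scalings, where its log2 fold change lay between -0.48 and 0.015.

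The profile of rno-miR-378 over the 8 libraries was compared with those of the 115 miRNAs with a mean of at least 100 CPM, by the root mean square difference of log2 CPM after each was centred on its own mean. The profiles share the TMM scaling, and likeness in 8 libraries is a description. As rno-miR-378 fell, miRNAs chosen for a like profile were bound to be lower in the AA group too, and their fold changes are given as values only. The median difference was 0.49. The nearest were rno-miR-148b-3p at 0.15, rno-miR-152 at 0.18, rno-miR-140* at 0.20, rno-miR-26a at 0.21 and rno-miR-30e* at 0.23, while rno-miR-378* lay at 0.25. The first of these are members of a seed family, and their sequences are shown for that reason.
rno-miR-148b-3p: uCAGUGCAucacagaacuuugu
rno-miR-152: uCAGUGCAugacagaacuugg
They share the seed with each other and not with rno-miR-378. rno-miR-148b-3p was at 6888 CPM ± 691 in control rats and at 4129 CPM ± 781 in AA rats (SD, n = 4 each), and its log2 fold change was -0.74 with a standard error of 0.17. rno-miR-152 was at 4681 CPM ± 697 and 2781 CPM ± 364 (SD, n = 4 each), with a log2 fold change of -0.75 and a standard error of 0.16. rno-miR-140*, the more abundant arm of its hairpin, had a log2 fold change of -0.68, rno-miR-26a one of -0.40 and rno-miR-30e* one of -0.62. For rno-miR-378*, the nearest profiles were those of rno-miR-30a* at 0.08, rno-miR-26a at 0.12, rno-miR-26b at 0.15, rno-miR-30e* at 0.16 and rno-miR-151 at 0.18.

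**Figure D5:**
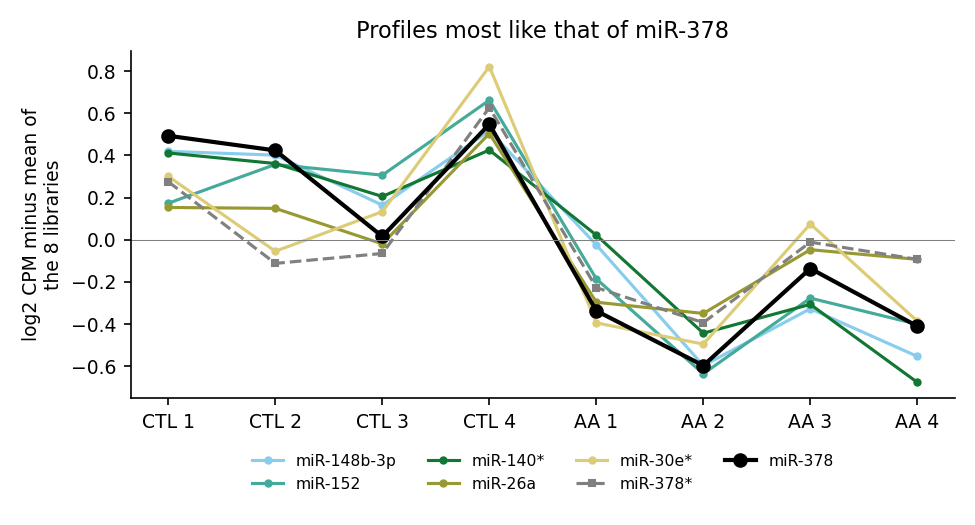
Log2 CPM of each miRNA minus its mean over the 8 libraries (vertical axis) for miR-378 (black), its opposite arm miR-378* (grey, dashed) and the 5 miRNAs whose profile is nearest to that of miR-378. Lines join the libraries of a miRNA only for reading, as libraries have no order. miR-378 is highest in CTL4 and lowest in AA2, and CTL3 lies near 0.

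Other miRNAs known for lipid and energy metabolism were set beside miR-378. Of the 9 on the list, 8 were tested. rno-miR-103 and rno-miR-107, which lie in introns of genes for pantothenate kinases, fell by 1.16 on the log2 scale (adjusted p = 0.0057) and 0.72 (adjusted p = 0.037, edgeR). The call for rno-miR-103 held with each library left out, whereas that for rno-miR-107 was lost in all 8 of these fits. The other 6 tested were not called, and 5.99% of all tested miRNAs were called lower. These 6 included rno-miR-33, from an intron of a sterol regulator gene, with a log2 fold change of -0.20, rno-miR-27b with -0.56, rno-miR-27a with 0.17 and rno-miR-335 with 1.06. The list's median was -0.28 beside 0.06 for all tested miRNAs. It was -0.08 beside 0.27 with total counts, where 1 of the 8 was called higher and 1 lower, and turned to 0.08 beside 0.44 with total counts less rno-miR-21.

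Among the 7 nephron miRNAs, rno-miR-194 fell by 0.73 on the log2 scale (adjusted p = 0.0499) and rno-miR-204 fell by 0.80 (adjusted p = 0.034, edgeR), and 5 were not called, beside 5.99% called lower among all tested miRNAs. Both calls were lost in 5 of the 8 fits with a library left out, and with total counts none of the 7 was called. The median log2 fold change was -0.50 beside 0.06 for all tested miRNAs, -0.32 beside 0.27 with total counts and -0.16 beside 0.44 with total counts less rno-miR-21. The calls of rno-miR-194 were lost without CTL1, CTL2, CTL4, AA2 or AA3 and those of rno-miR-204 without CTL1, CTL2, CTL4, AA1 or AA3. None of the 5 epithelial miRNAs of the miR-200 group was called, with a median of -0.07. This median turned positive with other scalings, to 0.14 with total counts and 0.29 with total counts less rno-miR-21, where 1 of the 5, rno-miR-200c, was called higher. The summed share of the nephron list was 17.9% ± 2.35 in control rats and 16.9% ± 1.54 in AA rats (SD, n = 4 each), and these overlapped. Most of this sum was rno-miR-30a. rno-miR-192, which was not called, had a log2 fold change of -0.79 (adjusted p = 0.20 from edgeR).

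miR-378 is also abundant in muscle and brown fat. The 5 muscle miRNAs in the table together took 0.0153% ± 0.000528 of the control reads and 0.0147% ± 0.00301 of the AA reads (SD, n = 4 each). None of the 4 tested was called, and rno-miR-499 was the most abundant. The 3 miRNAs of brown fat took 0.0247% ± 0.00421 and 0.0278% ± 0.00781 of the reads (SD, n = 4 each), with rno-miR-365 the most abundant, and none was called. rno-miR-1 had 246 to 588 reads in a library and rno-miR-133b had 2 to 10, and no member in the table was at 0 in all libraries. The sums of these lists overlapped between the groups.

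Some markers of other cells were higher in the AA group, where rno-miR-378 was lower. The 6 leukocyte miRNAs in the table summed to 0.311%, 0.253%, 0.306% and 0.221% of the reads in CTL1 to CTL4 and to 0.607%, 0.689%, 0.448% and 0.876% in AA1 to AA4. rno-miR-142-3p, the most abundant, rose by 1.47 on the log2 scale (adjusted p = 0.0018), rno-miR-146b rose by 2.27 (adjusted p = 0.0014) and rno-miR-223 rose by 1.02 (adjusted p = 0.019, edgeR). These are 3 of the 6, beside 10.4% called higher among all tested miRNAs. The other 3 were not called, and rno-miR-146a among them had a log2 fold change of -0.09. Over the 7 scalings, that of rno-miR-146a lay between -0.21 and 0.29 without a call. rno-miR-150, also among these 3, was called higher with 3 of the 7 scalings. With total counts 4 of the 6 were called higher, beside 54 of the 367 tested miRNAs. The call for rno-miR-223 was lost without CTL1, CTL2, CTL3, AA1 or AA4. The injury and fibrosis list, led by rno-miR-21, summed to 3.44%, 2.96%, 3.30% and 2.56% in CTL1 to CTL4 and to 16.0%, 12.4%, 7.53% and 19.3% in AA1 to AA4. In it, rno-miR-21 rose by 1.99 on the log2 scale (adjusted p = 0.0012), rno-miR-21* by 1.63 (adjusted p = 0.0023) and rno-miR-199a-3p by 0.65 (adjusted p = 0.033, edgeR), the last called in only 1 of the 8 fits with a library left out, that without AA1. These are 3 of 5 tested, again beside 10.4%. With upper quartile scaling 2 of the 5 were called higher, beside 29 of the 367 tested miRNAs. With total counts less rno-miR-21 all 5 were, beside 99 of the 367. No member of these lists was at 0. Within the AA group, AA3 had the highest share of rno-miR-378 and the lowest sum of both lists, but AA4, with the highest sums, had the second highest share of rno-miR-378, and AA1, with the lowest share, had the highest sum of neither list. The part of these cells in the fall of rno-miR-378 was not tested. The red blood cell list, with rno-miR-144 and the more abundant rno-miR-451, had no call and a median log2 fold change of -0.61. The medians of the leukocyte list and of the injury list were both 0.80, beside 0.06 for all tested miRNAs. With total counts less rno-miR-21, the red blood cell median was -0.24, the leukocyte median 1.20 and the injury median 1.22, beside 0.44.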

How the data were processed

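Small RNA of 8 rat kidneys was read on an Illumina Genome Analyzer II. The deposited values are counts of reads for each known rat miRNA of miRBase, made by the authors with miRanalyzer and Bowtie and not normalized. DESeq is also named in the submitters' processing notes, without its role. All 8 columns were mapped to samples by title. Removal of short reads and mapping were not repeated here.

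AA and control libraries were compared by the quasi-likelihood test of edgeR 4.0.16 (R 4.3.3) after TMM scaling, with Benjamini-Hochberg adjustment and a threshold of 0.05, for 367 miRNAs that reached 10 reads in 4 or more libraries. The standard error was the size of the log2 fold change divided by the square root of F. Arms were paired by name, and the arm ratio was tested with edgeR on 2 columns per library, with library, arm and arm by group as terms. Single values were compared with the exact permutation test over libraries. Alternatives were DESeq2 1.42.0, limma 3.58.1 for the arm ratio (0.5 added to each count), other scalings and filters, a block for the number in the title, and fits that left out 1 library each. Both edgeR steps were tested on simulated data, where the arm ratio step recovered most large changes but none of the small ones.

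The members, lists and tests were chosen with earlier results of these data known. The miRNAs named are the members, the 10 most abundant and their opposite arms, the list members, and the 5 nearest profiles of each arm (log2 CPM with a prior count of 2). miR-3557 was added after its values were seen. Of the lists, miR-155, miR-486, miR-208 and miR-208* were not among the names used here. Sequences and positions are from RefSeq (GRCr8). Wilson intervals and the limit of 3 reads for a count of 0 cover counting error only. For rno-miR-378*, with 268 to 461 reads in a library, counting error adds to the spread between rats, whereas for rno-miR-378 it is small beside that spread.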

Additional observations from a re-analysis of the deposited data

Results flagged for a closer look

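Over 44 groups of 4 libraries examined, 3 values lay far from the other libraries of their group, and chance sets about 5% of groups apart in this way. rno-miR-192 took 6.70% of the reads in CTL4 and 2.23% to 2.87% in the other control libraries. The liver miRNAs miR-122 and miR-122* together took 0.00479% of the reads in CTL1 and 0.00040% to 0.00064% in the other control libraries. They took 0.0654% in AA2 and 6.7e-05% to 0.00031% in the other AA libraries. Neither arm of miR-378, nor their ratio, was set apart in this way in any library. The source of these 3 values was not tested.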

How the results depend on the processing

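The log2 fold change of rno-miR-378 kept its sign and call in 16 of 20 alternatives, and that of rno-miR-378* its sign and lack of a call in all 20. When 1 library at a time was left out, the first was -0.97 to -0.69 and the second -0.60 to -0.22, the arm ratio was 0.26 to 0.47, the difference in the share of reads was -9.44 to -7.54 percentage points, and 35 to 51 miRNAs were called, with the lowest count without CTL2 and 37 without CTL1. With 7 libraries the exact test cannot go below p = 0.0571, so that these fits say nothing on the call of the share. With total counts less rno-miR-21, 110 miRNAs were called, 99 higher and 11 lower, and with total counts less the 10 most abundant miRNAs the split was 51 higher and 15 lower. The arm ratio passed only as a single value (0.38, exact permutation test, unadjusted p = 0.0286), and its adjusted p was 0.11 to 0.43 in the other alternatives.

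In 2 settings chosen after the data were seen, CTL1 and AA2 were left out, or only the libraries numbered 1 to 3 were kept. The first gave -0.75 for rno-miR-378 (adjusted p = 0.083, edgeR), 30 calls, and a difference in share of -7.86 percentage points, and the second gave -0.72 (adjusted p = 0.048, edgeR), 52 calls and -7.39 percentage points. Both have 3 rats a group, where the exact test cannot go below p = 0.1.

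The titles number the libraries 1 to 4 in each group. In a paired fit that took this number as a block, the log2 fold changes were -0.74 for rno-miR-378 (adjusted p = 0.044, edgeR) and -0.36 for rno-miR-378*, the arm ratio was 0.38 and 78 miRNAs were called. The share differed by -8.27 percentage points, where 4 pairs cannot go below p = 0.125 (exact permutation test of signs). Between libraries of the same number, deviations from the group means had correlations of 0.05, 0.20, 0.14 and 0.35 across miRNAs, so that 3 of the 4 pairs exceeded 0.1. CTL2, CTL3 and CTL4 correlated best with the AA library of their own number, and CTL1 with AA2. As the labels give the number no meaning and not every pair exceeded 0.1, the number was not taken as a pairing. This does not show that the number is without structure. The highest of these correlations, 0.35, was that of CTL4 with AA4. The share of rno-miR-378* in the reads of both arms was highest of its group in CTL4 (0.0116%) and in AA4 (0.0136%). The share of rno-miR-378 in all reads was highest of its group in CTL4 but not in AA4. What libraries of the same number have in common was not tested.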
